A study of Homo sapiens with 15 samples.

Results

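The EGF receptor family and its ligands were followed in 2 clear cell renal cell carcinoma (ccRCC) lines with and without ANGPTL4, a secreted protein known as an inhibitor of lipoprotein lipase. The 9 genes were taken by symbol, as the receptors EGFR, ERBB2 and ERBB3, the EGFR ligands TGFA, AREG, EREG, HBEGF and BTC, and the ERBB3 and ERBB4 ligand NRG1. All 9 of 9 were present in both tables, which hold 16296 genes for CAKi-1, 16188 for 786O and 15247 in common. mRNA was measured by poly(A) RNA-seq in 15 libraries, in TPM, transcript abundance scaled by transcript length and library total, so levels are compared between genes in TPM. CAKi-1 keeps a WT copy of VHL, the tumor suppressor most often lost in ccRCC, and 786O carries mutant VHL.

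The 4 groups were CAKi-1 WT (n = 4), CAKi-1 A4KO (n = 5), 786O WT (n = 3) and 786O A4KO (n = 3), all untreated cultured cells. A4KO cells were combined single clones grown out after Cas9 protein and a guide RNA against ANGPTL4 had been transfected. 786O WT cells were combined clones from the same procedure that had kept ANGPTL4. For CAKi-1, the methods of the study give parental cells as the WT control while the series description gives combined clones. In that line the passage through single clones and the loss of ANGPTL4 cannot be told apart. The A4KO and WT cells of 786O were pools of different clones. There, differences between the chosen clones and the loss of ANGPTL4 cannot be told apart either. The sources also name different culture media, RPMI and DMEM. The labels do not say whether libraries of a group came from separate cultures, so the p-values measure only the spread between these libraries.

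In every A4KO library ANGPTL4 was below every WT library of its line. Its mean was 79.2 TPM in CAKi-1 WT and 4.48 TPM in CAKi-1 A4KO, and 18.8 TPM and 2.07 TPM in 786O. CAKi-1 A4KO replicates 1 and 4 stood apart from replicates 2, 3 and 5. Over all genes the correlation of log2(TPM + 1) was 0.9969 between replicates 1 and 4, 0.9962 to 0.9971 among the other 3, and 0.9878 to 0.9912 between the sets, and ANGPTL4 was 6.47 and 7.26 TPM in replicates 4 and 1 against 2.87 to 2.90 TPM in the others. The members' fold changes are given with and without replicates 1 and 4. Of 10 markers of renal epithelium and ccRCC, 8 were in the CAKi-1 table and 10 in the 786O table. PAX8, a renal lineage factor, had a mean of 172 TPM in CAKi-1 WT and 231 TPM in 786O WT, whereas E-cadherin (CDH1) and megalin (LRP2) stayed under 1 TPM in every group, and CA9 and PAX2 were not in the CAKi-1 table.

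EGFR family receptors sit in the plasma membrane as monomers and signal as pairs. EGFR binds EGF, TGFA, AREG, EREG, HBEGF and BTC. ERBB2 has no known ligand and acts as a partner of the others, and ERBB3, whose kinase is weak, binds neuregulins such as NRG1. The ligands are made as membrane-anchored precursors that ADAM proteases cut free, and the active receptors feed the RAS-ERK and PI3K-AKT pathways. In the kidney, EGFR and its ligands are known for their part in tubular growth and repair, and TGFA is known as a gene that rises where VHL is lost.

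The family's genes are scattered over the genome except for a cluster of ligands on chromosome 4. By GENCODE release 44 on hg38, EREG lies at chr4:74365145-74388749 and AREG at chr4:74445136-74455005, both on the plus strand and 56387 bases apart. BTC lies at chr4:74744759-74794523 on the minus strand, 289754 bases beyond AREG. EGFR lies at chr7:55019017-55211628 on the plus strand and TGFA at chr2:70447284-70554193 on the minus strand.

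The 250 bases before the start of AREG and of EREG are shown because these neighbours had the highest correlation of any pair among the 9 genes over all 15 libraries, a measure in which the difference between the lines weighs heavily. AREG also passed the fold threshold, while EREG was added after its values were seen. The sequences are from RefSeq (GRCh38.p14), plus strand, chr4:74444886-74445135 for AREG and chr4:74364895-74365144 for EREG. The 300-base RefSeq windows (250 bases before to 50 after the start) were searched on both strands for AP-1 (TGANTCA), the cAMP response element CRE (TGACGTCA), SP1 (GGGCGG) and the core of the hypoxia response element (ACGTG), and capitals mark matches.
AREG: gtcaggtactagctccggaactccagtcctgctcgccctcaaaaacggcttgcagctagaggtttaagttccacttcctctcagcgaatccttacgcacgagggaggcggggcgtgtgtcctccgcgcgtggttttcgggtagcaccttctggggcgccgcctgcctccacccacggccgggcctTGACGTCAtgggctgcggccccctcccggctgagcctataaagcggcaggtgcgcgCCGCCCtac
EREG: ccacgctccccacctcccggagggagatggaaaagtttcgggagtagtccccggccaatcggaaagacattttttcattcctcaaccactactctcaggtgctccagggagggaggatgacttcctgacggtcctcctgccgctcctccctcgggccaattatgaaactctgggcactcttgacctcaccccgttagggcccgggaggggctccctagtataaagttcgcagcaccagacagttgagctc
The AREG window held a CRE whose first base lies 65 bases before the start and an SP1 match 9 bases before it. CRE was present in 1.85% and SP1 in 45.0% of the 35116 promoters of the table. The EREG window held no match in the printed bases and a single ACGTG, present in 21.4% of promoters, after the start. AP-1, present in 7.71% of promoters, was found in neither. A match is a description of the letters only.

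Levels of the members differed in order between the lines. In CAKi-1 WT the most abundant was EREG with 260.0 TPM ± 77.4 (SD, n = 4), followed by AREG with 146 TPM ± 18.4 and TGFA with 63.2 TPM ± 10.7. EGFR was 52.0 TPM ± 1.63 and its libraries overlapped those of TGFA. In 786O WT the order began with TGFA at 135 TPM ± 3.57 (SD, n = 3), then EGFR at 88.0 TPM ± 2.95 and ERBB2 at 31.7 TPM ± 0.728, and no neighbours in that order overlapped. AREG was only 10.7 TPM ± 0.380 in 786O WT. ERBB3 was the lowest member in every group, with means between 0.928 and 2.83 TPM. The tables of the lines were made separately, so levels between lines are set side by side with no test.

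**Figure D1:**
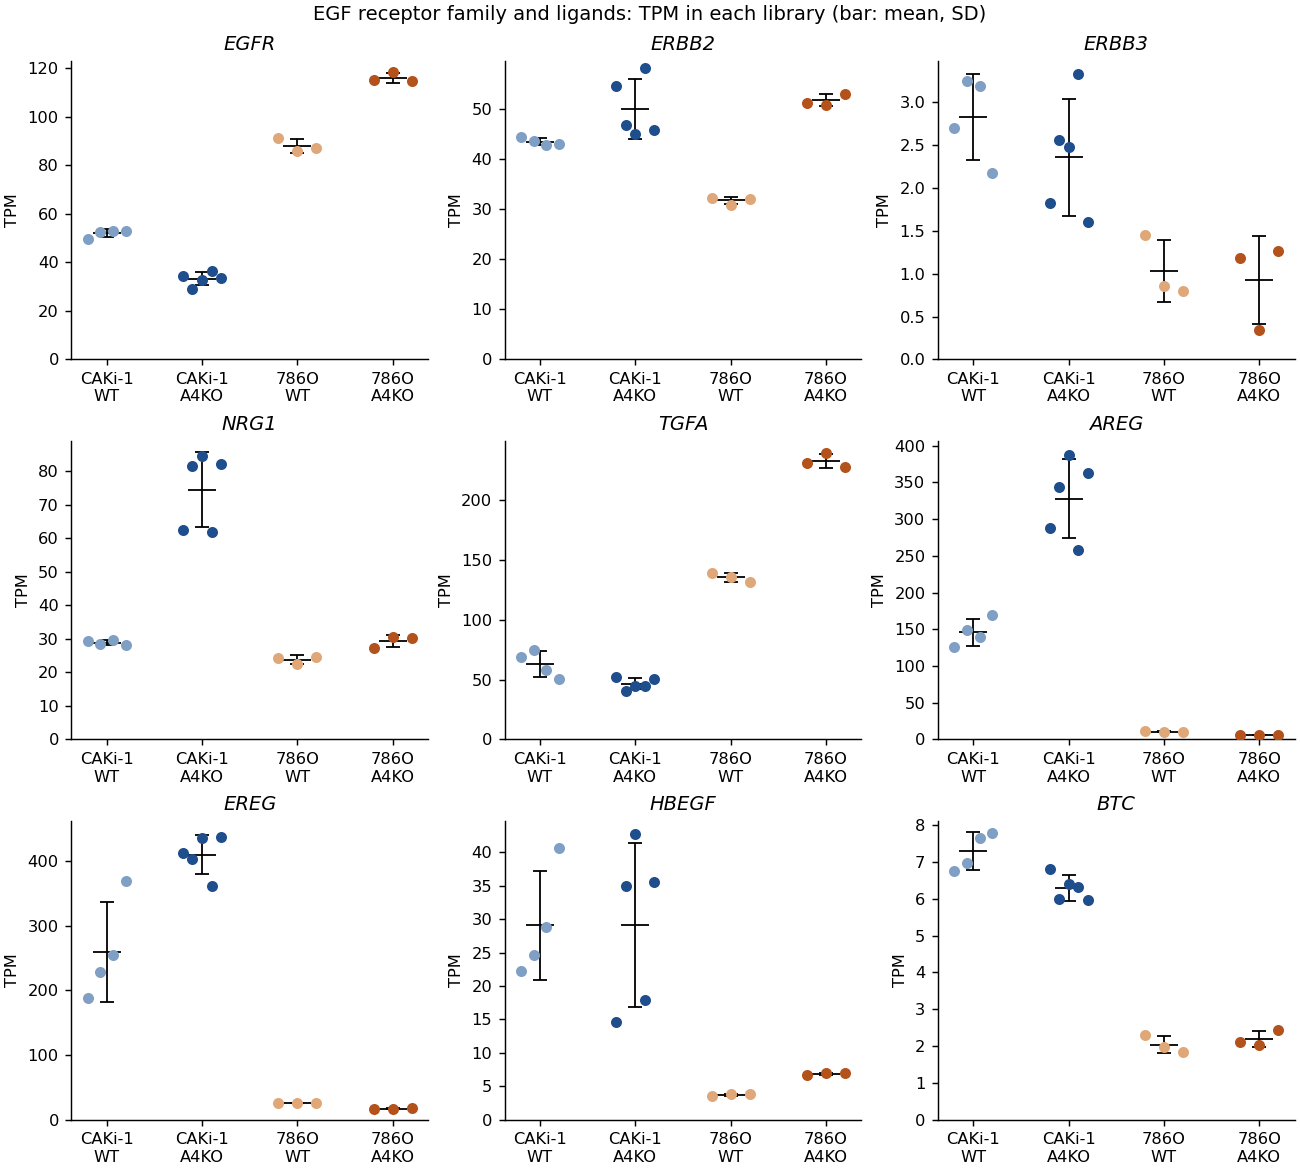
TPM (linear axis from 0) of each of the 9 genes in each of the 15 libraries, by group, with a bar for the mean and whiskers for the SD. NRG1 and AREG of CAKi-1 A4KO lie well above CAKi-1 WT, TGFA of 786O A4KO lies above 786O WT, and the CAKi-1 A4KO libraries split for HBEGF, with 2 at 14.6 and 17.9 TPM and 3 between 34.9 and 42.7 TPM.

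A4KO and WT libraries were compared within each line with limma on log2(TPM + 1), and adjusted p are Benjamini-Hochberg values over all genes of the table. A gene is said to have risen or fallen at an adjusted p of at most 0.05, and to have passed the fold threshold where its log2 fold change was also at least 1 in size. In CAKi-1 A4KO, 3 of 9 members rose (NRG1, AREG, EREG) and 3 fell (EGFR, TGFA, BTC), against 17.9% of all genes that rose and 21.1% that fell. The fold threshold was passed by 2 members upward (NRG1, AREG), where 2.21% of all genes passed, and by 0 downward, where 1.12% did. The median log2 fold change of the 9 was -0.07, against -0.01 over all genes. In 786O A4KO, 5 of 9 rose (EGFR, ERBB2, NRG1, TGFA, HBEGF) and 2 fell (AREG, EREG), against 27.5% and 33.5% of all genes. None passed the fold threshold there, which 2.43% of all genes passed upward and 5.19% downward. The median of the 9 in 786O was 0.29, against -0.03 over all genes.

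Libraries of A4KO and WT did not overlap for 4 of 9 members in CAKi-1 and 7 of 9 in 786O, where 35.9% and 66.9% of all genes had no overlap. An exact permutation test over libraries cannot go below p = 0.0159 in CAKi-1 or p = 0.1 in 786O, and the members without overlap sat at that smallest value. Those 2 shares of members lie near the shares of all genes.

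**Figure D2:**
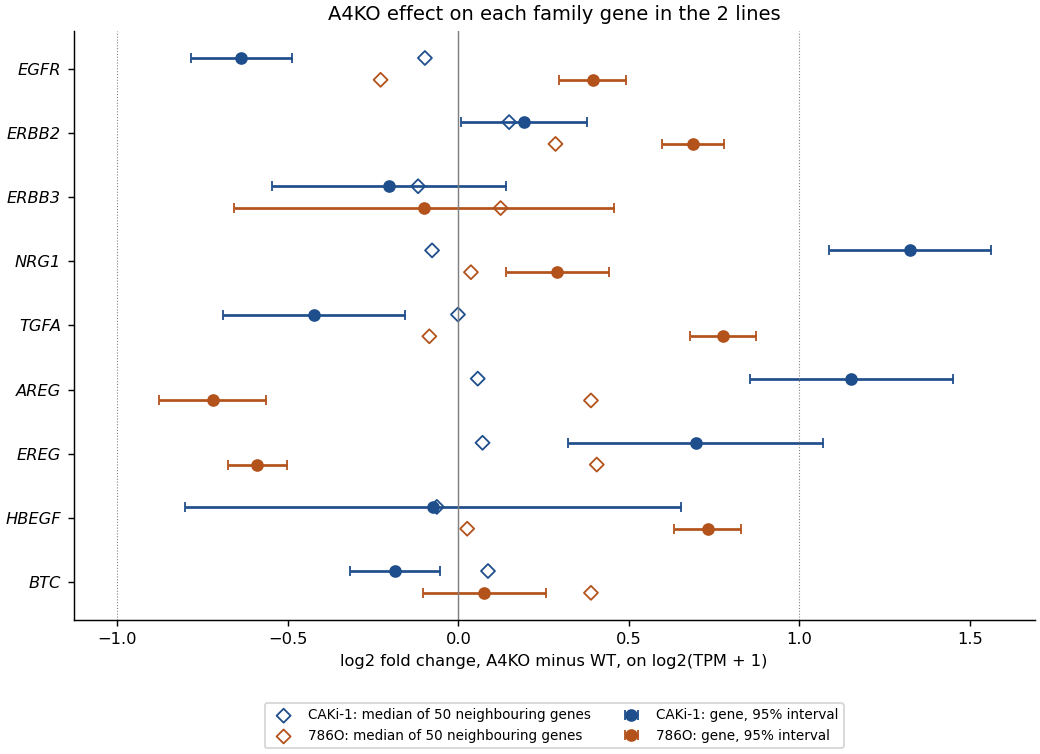
Log2 fold change (A4KO minus WT on log2(TPM + 1), horizontal axis) of each gene in CAKi-1 and 786O, with 95% intervals, beside the median of its 50 expressed neighbouring genes (open diamonds) and dotted lines at -1 and 1. EGFR and TGFA lie below 0 in CAKi-1 and above 0 in 786O, and AREG and EREG lie the other way.

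EGFR, the receptor shared by most of these ligands, fell in CAKi-1 A4KO and rose in 786O A4KO. Its levels in CAKi-1 WT (replicates 1 to 4) were 49.5, 52.6, 52.9 and 52.9 TPM, and those in A4KO (replicates 1 to 5) were 34.4, 29.1, 32.5, 36.3 and 33.5 TPM. All A4KO libraries lay below all WT libraries, at a log2 fold change of -0.64 ± 0.065 (SE) and an adjusted p of 1.27e-04. In 786O it went from 91.4, 85.8 and 86.9 TPM in WT to 115, 118 and 115 TPM in A4KO, again without overlap. The change there was 0.39 ± 0.040, with an adjusted p of 2.55e-04. EGFR shares exon bases with EGFR-AS1 on the opposite strand, and the sources do not say whether strand was used in counting.

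ERBB2, the ligandless partner receptor, rose in 786O A4KO and did not pass the test in CAKi-1. In 786O it was 32.2, 30.9 and 32.0 TPM in WT and 51.2, 50.8 and 53.0 TPM in A4KO, a log2 fold change of 0.69 ± 0.038 with an adjusted p of 1.84e-05. In CAKi-1 WT it was 44.3, 43.5, 42.8 and 43.0 TPM, and in A4KO 54.6, 46.7, 44.9, 58.1 and 45.7 TPM. Every CAKi-1 A4KO library was above every WT library, yet the A4KO libraries were spread, with replicates 1 and 4 highest. The difference was 0.19 (95% interval 0.008 to 0.377, adjusted p = 0.0915). It was 0.08 with A4KO replicates 2, 3 and 5 only (adjusted p = 0.176) and 0.06 with neighbour-centred values (adjusted p = 0.625), in which the median deviation of nearby genes is subtracted in each library. ERBB2 shares exon bases with MIEN1 and PGAP3 on the opposite strand, whose reads could be shared if strand was not used.

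Relative to EGFR, ERBB2 was higher in the A4KO libraries of both lines. The ratio of ERBB2 to EGFR in TPM was 0.809 to 0.895 in CAKi-1 WT and 1.36 to 1.61 in CAKi-1 A4KO, so that ERBB2 passed from the less to the more abundant of the pair. In 786O the ratio was 0.353 to 0.368 in WT and 0.429 to 0.463 in A4KO, and EGFR stayed the more abundant in all 6 libraries.

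ERBB3, the receptor for NRG1, was scarce and did not pass the test in either line. It ranged from 2.18 to 3.25 TPM in CAKi-1 WT and from 1.61 to 3.33 TPM in A4KO, a difference of -0.20 (95% interval -0.545 to 0.140, adjusted p = 0.324). In 786O it ranged from 0.797 to 1.45 TPM in WT and from 0.340 to 1.26 TPM in A4KO, a difference of -0.10 (95% interval -0.659 to 0.457, adjusted p = 0.734). These intervals leave room for changes of either sign. ERBB3 shares exon bases with 1 other annotated gene on the same strand, whose reads could be shared even if strand was used.

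AREG (amphiregulin), a ligand of EGFR alone, showed the largest contrast between the lines among the 9. In CAKi-1 WT it was 126, 149, 140 and 170 TPM and in A4KO 287, 344, 387, 257 and 363 TPM. The groups did not overlap, and A4KO replicates 1 and 4 were the lowest of the 5. The log2 fold change was 1.15 ± 0.132, with an adjusted p of 2.29e-04 and a ratio of means of 2.24. In 786O AREG went from 10.9, 10.8 and 10.2 TPM in WT to 6.45, 5.47 and 6.36 TPM in A4KO, a fall of the reverse sign without overlap. The log2 fold change there was -0.72 ± 0.065, with an adjusted p of 1.46e-04.

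EREG (epiregulin), a ligand of EGFR and ERBB4, moved in the same directions as its neighbour AREG in both lines. In CAKi-1 WT it was 188, 228, 255 and 369 TPM and in A4KO 412, 403, 436, 362 and 437 TPM. WT replicate 4 lay above A4KO replicate 4, and the other libraries of the groups were separate. The log2 fold change was 0.70 ± 0.166, with an adjusted p of 0.00956. In 786O EREG was 25.9, 25.6 and 25.8 TPM in WT and 16.3, 16.9 and 17.1 TPM in A4KO, a log2 fold change of -0.59 ± 0.036 with an adjusted p of 2.72e-05.

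TGFA, a ligand of EGFR alone, moved in the directions of EGFR. In 786O it was 139, 135 and 132 TPM in WT and 231, 239 and 227 TPM in A4KO, a log2 fold change of 0.78 ± 0.040 with an adjusted p of 1.41e-05. In CAKi-1 it was 69.2, 74.5, 58.4 and 50.8 TPM in WT and 52.1, 40.6, 44.8, 44.5 and 50.9 TPM in A4KO. The CAKi-1 groups overlapped through WT replicate 4. The log2 fold change in CAKi-1 was -0.42 ± 0.119, with an adjusted p of 0.0200, and that call was lost without WT replicate 1 (adjusted p = 0.0602) or WT replicate 2 (adjusted p = 0.0581).

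**Figure D3:**
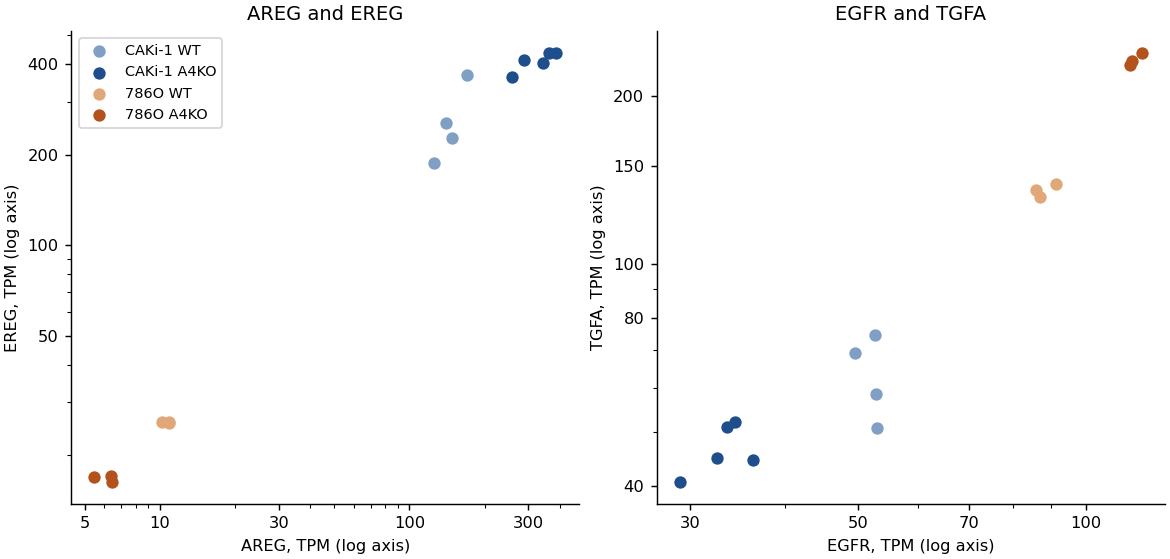
TPM of AREG against EREG and of EGFR against TGFA in each of the 15 libraries (log axes), colored by group. Within 786O and CAKi-1 alike, A4KO libraries are displaced from WT libraries along the diagonal, upward in CAKi-1 and downward in 786O for AREG and EREG, and the reverse for EGFR and TGFA.

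HBEGF, a heparin-binding ligand of EGFR and ERBB4, rose in 786O A4KO and was split in CAKi-1. In 786O it was 3.56, 3.81 and 3.79 TPM in WT and 6.61, 6.91 and 6.97 TPM in A4KO, a log2 fold change of 0.73 ± 0.041 with an adjusted p of 1.95e-05. In CAKi-1 WT it was 22.3, 24.6, 28.9 and 40.6 TPM and in A4KO 14.6, 34.9, 42.7, 17.9 and 35.6 TPM. A4KO replicates 1 and 4 lay below every WT library, while replicates 2, 3 and 5 lay among or above them. The difference in CAKi-1 was -0.07 (95% interval -0.801 to 0.654, adjusted p = 0.878), and with A4KO replicates 2, 3 and 5 only it was 0.40 (adjusted p = 0.148).

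BTC (betacellulin), a ligand of EGFR and ERBB4 and the scarcest EGFR ligand of the 5, changed little. In CAKi-1 it was 6.75, 6.98, 7.66 and 7.80 TPM in WT and 6.81, 5.996, 6.40, 6.32 and 5.95 TPM in A4KO. The groups overlapped only through WT replicate 1 and A4KO replicate 1, and the log2 fold change was -0.18 ± 0.059 (adjusted p = 0.0326). That call was lost when CAKi-1 WT replicate 3 or 4 or A4KO replicate 2, 4 or 5 was left out (adjusted p 0.0550 to 0.0910). In 786O BTC was 1.84 to 2.29 TPM in WT and 2.03 to 2.43 TPM in A4KO, a difference of 0.08 (95% interval -0.104 to 0.256, adjusted p = 0.417).

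The summed TPM of the 5 EGFR ligands was higher in A4KO than in WT libraries of both lines, through different members. The sum was 413 to 637 TPM in CAKi-1 WT and 688 to 917 TPM in CAKi-1 A4KO, and 173 to 181 TPM in 786O WT and 260.3 to 270.5 TPM in 786O A4KO. AREG and EREG together made up 76.2% to 84.4% of the sum in CAKi-1 WT and 89.6% to 90.5% in CAKi-1 A4KO. In 786O they made up 20.3% to 20.8% in WT and 8.29% to 9.02% in A4KO, where TGFA took 76.0% to 76.5% in WT and 87.4% to 88.4% in A4KO. The ligand sum per EGFR transcript was 8.33 to 12.1 in CAKi-1 WT and 19.0 to 28.5 in CAKi-1 A4KO, and 1.99 to 2.07 and 2.27 to 2.29 in 786O. The sum is a description of mRNA and not of shed ligand, and no test was run on it.

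**Figure D4:**
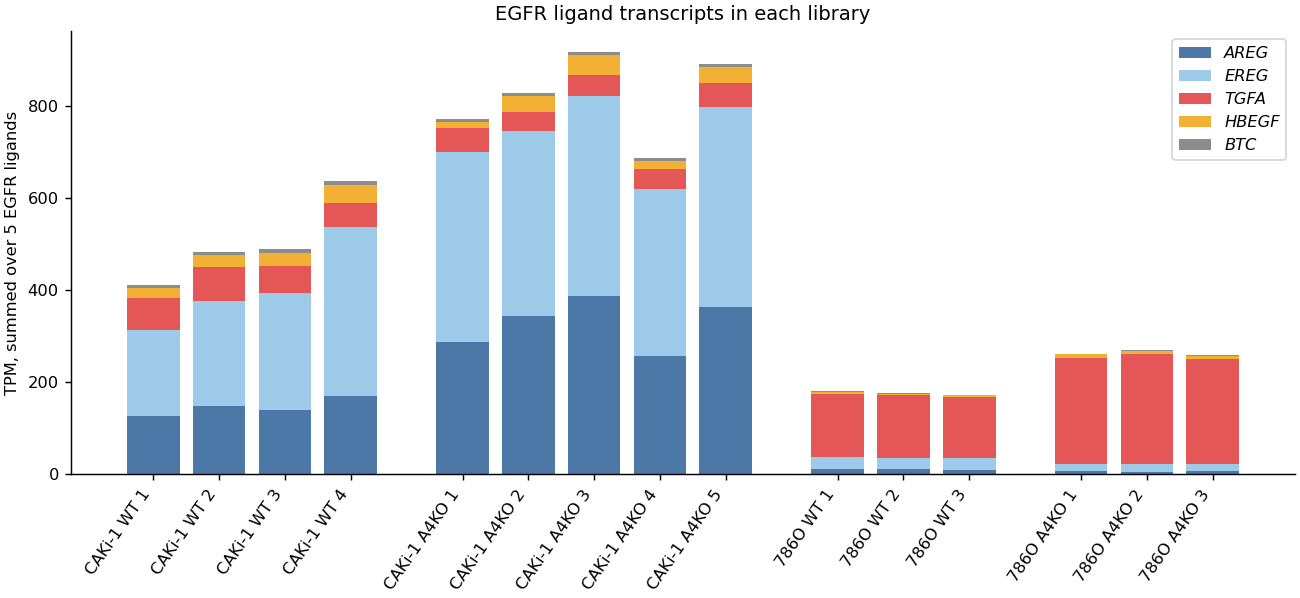
Stacked bars from 0 of the TPM of AREG, EREG, TGFA, HBEGF and BTC in each library. AREG and EREG fill most of every CAKi-1 bar, TGFA fills most of every 786O bar, and the A4KO bars of each line are taller than its WT bars.

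NRG1 (neuregulin 1), the ligand of ERBB3 and ERBB4, was the member with the largest rise in CAKi-1 A4KO and also rose in 786O A4KO, the only member that changed in the same direction in both lines. In CAKi-1 it was 29.5, 28.3, 29.7 and 28.1 TPM in WT and 62.6, 81.6, 84.4, 61.9 and 82.1 TPM in A4KO. The groups were far apart, with A4KO replicates 1 and 4 below the other 3. The log2 fold change was 1.32 ± 0.106, with an adjusted p of 3.40e-05, and the ratio of means was 2.58. In 786O it was 24.3, 22.4 and 24.7 TPM in WT and 27.2, 30.6 and 30.3 TPM in A4KO, a log2 fold change of 0.29 ± 0.062 with an adjusted p of 0.00715. NRG1 has 35 annotated transcripts, which gene-level TPM does not tell apart. It shares exon bases with 1 other annotated gene on the same strand, whose reads could be shared even if strand was used.

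Whether the A4KO effect differed between the lines was tested with an interaction term over the 15247 shared genes, as the effect in 786O minus that in CAKi-1. It passed for 7 of 9 members, where 55.1% of all shared genes passed. The difference in log2 fold change was -1.87 ± 0.179 for AREG (adjusted p = 1.15e-06), -1.29 ± 0.217 for EREG (1.92e-04) and -1.03 ± 0.145 for NRG1 (4.00e-05). It was 1.20 ± 0.156 for TGFA (2.04e-05), 1.03 ± 0.087 for EGFR (3.59e-07), 0.50 ± 0.108 for ERBB2 (0.00147) and 0.26 ± 0.096 for BTC (0.0325). The BTC difference was lost when CAKi-1 WT replicate 3 or 4, CAKi-1 A4KO replicate 2, 786O WT replicate 2 or 3 or 786O A4KO replicate 3 was left out (adjusted p 0.0516 to 0.0970). For HBEGF it was 0.80 ± 0.422 and did not pass (adjusted p = 0.122), and it was 0.34 with A4KO replicates 2, 3 and 5 of CAKi-1 only (adjusted p = 0.226). Nor did ERBB3 pass, at 0.10 ± 0.280 (adjusted p = 0.781). Of the 9, 4 changed in both lines in opposite directions (EGFR, TGFA, AREG, EREG), as did 16.0% of all shared genes. A single member (NRG1) changed in both lines in the same direction, as did 12.0% of all shared genes.

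Replicates 1 and 4 of CAKi-1 A4KO did not overlap with replicates 2, 3 and 5 for 5 of the 9 members, as for 60.0% of all genes, a share near that of the members. The 5 were EGFR (34.4 to 36.3 against 29.1 to 33.5 TPM), ERBB2 (54.6 to 58.1 against 44.9 to 46.7 TPM), NRG1 (61.9 to 62.6 against 81.6 to 84.4 TPM), AREG (257 to 287 against 344 to 387 TPM) and HBEGF. For ERBB3, TGFA, EREG and BTC the sets overlapped. With A4KO replicates 2, 3 and 5 only, the CAKi-1 log2 fold changes were -0.70 for EGFR, 0.08 for ERBB2, -0.26 for ERBB3, 1.49 for NRG1, -0.46 for TGFA, 1.32 for AREG, 0.75 for EREG and -0.22 for BTC. By count, 6 of 9 members then passed the adjusted p, where 38.8% of all genes did, and 2 the fold threshold, where 2.53% did, the same counts of members as with all 5 libraries. On the same 3 A4KO libraries, the effect in 786O minus that in CAKi-1 was 1.09 for EGFR, 0.61 for ERBB2, 0.16 for ERBB3, -1.20 for NRG1, 1.24 for TGFA, -2.04 for AREG, -1.34 for EREG, 0.34 for HBEGF and 0.30 for BTC. Again 7 of 9 members passed, where 59.5% of all shared genes did.

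Around the chromosome 4 ligands, the surrounding genes of 786O were shifted the other way from AREG and EREG. The median log2 fold change of the 25 expressed genes on each side of AREG was 0.39 in 786O, and it was 0.41 around EREG and 0.39 around BTC. These ligands lie close together, so their windows overlap and the medians are not separate observations. Only the gene itself was left out of its window, so the other ligands were not excluded. In CAKi-1 those medians were 0.06, 0.07 and 0.09. The neighbours of EGFR had a median of -0.23 in 786O and those of ERBB2 0.28. With the neighbours' median deviation taken off each library, the 786O log2 fold changes were -1.11 for AREG, -1.001 for EREG, 0.65 for EGFR and 0.41 for ERBB2, so that AREG and EREG passed the fold threshold. BTC then changed sign, to -0.32 with an adjusted p of 0.00773. What shifted the neighbours was not tested.

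In bulk samples, fewer cells that express a gene and less RNA of it per cell cannot be told apart. Of the measured markers of leukocytes, endothelium and fibroblasts, 2 of 10 rose and 1 fell in CAKi-1 A4KO, where 17.9% of all genes rose and 21.1% fell, and 0 of 9 rose and 3 fell in 786O A4KO, where 27.5% rose and 33.5% fell. The summed levels of these lists did not overlap between WT and A4KO, except for the leukocyte list in CAKi-1. The fibroblast list (5 of 6 in the CAKi-1 table, 4 of 6 in the 786O table) summed to 13.4 to 16.5 TPM in CAKi-1 WT and 32.1 to 48.7 TPM in A4KO, and to 9.94 to 13.7 TPM in 786O WT and 5.16 to 5.83 TPM in A4KO. Its 2 expressed genes went different ways. COL1A1 rose in CAKi-1 from a mean of 10.2 to 36.2 TPM and was 3.49 and 4.04 TPM in 786O (adjusted p = 0.393), whereas LUM fell from 3.63 to 1.58 TPM in CAKi-1 and from 7.93 to 1.28 TPM in 786O. Of 5 endothelial markers, PECAM1 alone was in the CAKi-1 table, at 0.209 to 0.555 TPM in WT and 1.54 to 6.17 TPM in A4KO. CDH5, VWF and KDR were in neither table, and PECAM1 and TEK summed to 1.09 to 1.58 TPM in 786O WT and 0.536 to 0.588 TPM in A4KO. Of 6 leukocyte markers, CD68 alone exceeded a mean of 1 TPM, and the list summed to 56.4 to 59.9 TPM in CAKi-1 WT, 50.1 to 60.7 TPM in CAKi-1 A4KO, 42.8 to 44.1 TPM in 786O WT and 20.2 to 21.5 TPM in 786O A4KO. The defining leukocyte gene PTPRC had group means of 0.208 to 0.372 TPM. The renal epithelial list summed to 2228 to 3083 TPM in CAKi-1 WT and 793 to 1245 TPM in A4KO, mostly through the keratins KRT8 and KRT18, and to 1369 to 1379 TPM and 947 to 956 TPM in 786O. Mitochondrial transcripts took 7.47% to 8.16% of TPM in 786O WT and 9.46% to 10.0% in 786O A4KO, and 6.39% to 8.00% in CAKi-1. The part of these differences in the results above was not tested.

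The 6 remaining genes of the family were at low levels. EGF itself was 1.65 TPM in CAKi-1 WT and 1.74 TPM in A4KO and did not pass the test (adjusted p = 0.581), and in 786O it fell from 2.62 to 2.11 TPM (log2 fold change -0.22, adjusted p = 0.0210). NRG2, a further ligand of ERBB3 and ERBB4, fell in CAKi-1 from 3.59 TPM ± 0.549 (SD, n = 4) to 2.05 TPM ± 0.318 (SD, n = 5), the opposite of NRG1, at a log2 fold change of -0.59 ± 0.103 and an adjusted p of 0.00207. In 786O NRG2 was 2.20 and 2.15 TPM (adjusted p = 0.916). EPGN at 0.336 and 0.384 TPM, NRG3 at 0.0194 and 0.0716 TPM and NRG4 at 1.51 and 0.939 TPM in CAKi-1 WT and A4KO did not pass. NRG4 was 0.114 and 0.0505 TPM in 786O, and EPGN and NRG3 were not in the 786O table. ERBB4 was in neither table.

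Of 14 genes for shedding and processing of the ligands, 4 rose and 4 fell in CAKi-1 A4KO, with a median log2 fold change of -0.12, and 9 rose and 3 fell in 786O A4KO, with a median of 0.30. Of all genes, 17.9% rose and 21.1% fell in CAKi-1 and 27.5% rose and 33.5% fell in 786O, and the counts of this and the following lists are to be read against those shares, with no test of a list. FURIN, a convertase that activates ADAM proteases, rose in both, from 33.2 to 48.9 TPM in CAKi-1 (0.54 ± 0.048, adjusted p = 5.50e-05) and from 20.01 to 45.8 TPM in 786O (1.15 ± 0.037, adjusted p = 2.77e-06). In CAKi-1, the membrane protease ADAM15 fell from 116 to 65.1 TPM (-0.83), and FRMD8, a partner of the iRhom proteins that carry ADAM17, fell from 43.9 to 30.5 TPM (-0.51). In 786O the proteases ADAM12 and ADAM19 fell, from 22.3 to 8.73 TPM (-1.26) and from 21.8 to 11.3 TPM (-0.88).

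Of 14 measured receptor inhibitors, phosphatases and ubiquitin regulators (CBLC was in neither table), 5 rose and 4 fell in CAKi-1 A4KO, with a median of 0.07, and 4 rose and 9 fell in 786O A4KO, with a median of -0.29, where 17.9% and 21.1% of all genes in CAKi-1 and 27.5% and 33.5% in 786O did. CBLB, a ubiquitin ligase that marks active EGFR for degradation, rose in CAKi-1 from 3.13 to 7.41 TPM (1.01 ± 0.155, adjusted p = 0.00103), as did LRIG3 from 11.9 to 21.6 TPM (0.82). In 786O LRIG1, an inhibitor that lowers receptor levels, fell from 2.75 to 0.588 TPM (-1.24), and PTPRJ, a receptor-type tyrosine phosphatase, fell from 32.7 to 12.2 TPM (-1.35). PTPN1, a tyrosine phosphatase known to act on EGFR, fell in CAKi-1 from 64.8 to 40.8 TPM (-0.65) and rose in 786O from 34.9 to 64.9 TPM (0.87).

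Of 34 adaptor and signal relay genes, 5 rose and 12 fell in CAKi-1 A4KO (median -0.10), and 11 rose and 13 fell in 786O A4KO (median 0.01), beside 17.9% and 21.1% of all genes in CAKi-1 and 27.5% and 33.5% in 786O. The PI3K regulatory subunits PIK3R1 (14.9 to 24.4 TPM, 0.68) and PIK3R2 (26.7 to 38.5 TPM, 0.51) rose in CAKi-1. STAT5A, a transcription factor activated by many receptors, rose in CAKi-1 from 1.66 to 3.56 TPM (0.77) and fell in 786O from 1.30 to 0.200 TPM (-0.94). In 786O the RAS exchange factor SOS2 fell from 10.9 to 5.19 TPM (-0.95) and the adaptor NCK2 from 59.6 to 32.5 TPM (-0.86). Of 13 endocytosis and sorting genes, 1 rose and 5 fell in CAKi-1 (median -0.09), and 5 rose and 7 fell in 786O (median -0.12), beside the same shares of all genes. Among them RAB7A, a GTPase of late endosomes, fell in CAKi-1 from 293 to 226 TPM (-0.38) and rose in 786O from 154 to 233 TPM (0.59). The endocytic adaptor EPN2 fell in both (log2 fold change -0.60 in CAKi-1 and -0.56 in 786O), EPS15L1 rose in CAKi-1 (0.36) and SH3GL1 rose in 786O (0.56).

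Of 10 feedback inhibitors of ERK signaling, 4 rose and 1 fell in CAKi-1 A4KO (median 0.09), and 0 rose and 6 fell in 786O A4KO (median -0.26). The shares of all genes were 17.9% and 21.1% in CAKi-1 and 27.5% and 33.5% in 786O, and with 10 genes in the list no more is read from the counts. SPRY1 rose in CAKi-1 from 1.32 to 4.52 TPM (1.20 ± 0.225, adjusted p = 0.00300) and SPRED3 fell from 5.998 to 4.17 TPM (-0.44). In 786O the ERK phosphatase DUSP5 fell from 26.2 to 7.28 TPM (-1.72 ± 0.044, adjusted p = 1.25e-06), and SPRY4 fell from 1.26 to 0.270 TPM (-0.84). DUSP4 rose in CAKi-1 from 1.10 to 2.16 TPM (0.59) and fell in 786O from 1.27 to 0.461 TPM (-0.64).

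Of 20 genes known to respond to ERK, 9 rose and 4 fell in CAKi-1 A4KO (median 0.28), and 6 rose and 8 fell in 786O A4KO (median -0.08). The 786O counts lie near the 27.5% and 33.5% of all genes that rose and fell, and those of CAKi-1 stand beside 17.9% and 21.1%. In CAKi-1 cyclin D1 (CCND1) fell from 138 to 39.0 TPM (-1.82 ± 0.136, adjusted p = 2.52e-05) and the AP-1 subunit FOSL1 fell from 302 to 107 TPM (-1.64), with A4KO libraries between 53.3 and 164 TPM. Another AP-1 subunit, FOSL2, rose from 71.2 to 143 TPM (1.004). In 786O FOS fell from 74.7 to 25.7 TPM (-1.50) and IER3 from 221 to 72.5 TPM (-1.60), whereas the stress-responsive factor ATF3 rose from 3.77 to 14.0 TPM (1.66). In both lines genes of this list moved both ways.

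**Figure D5:**
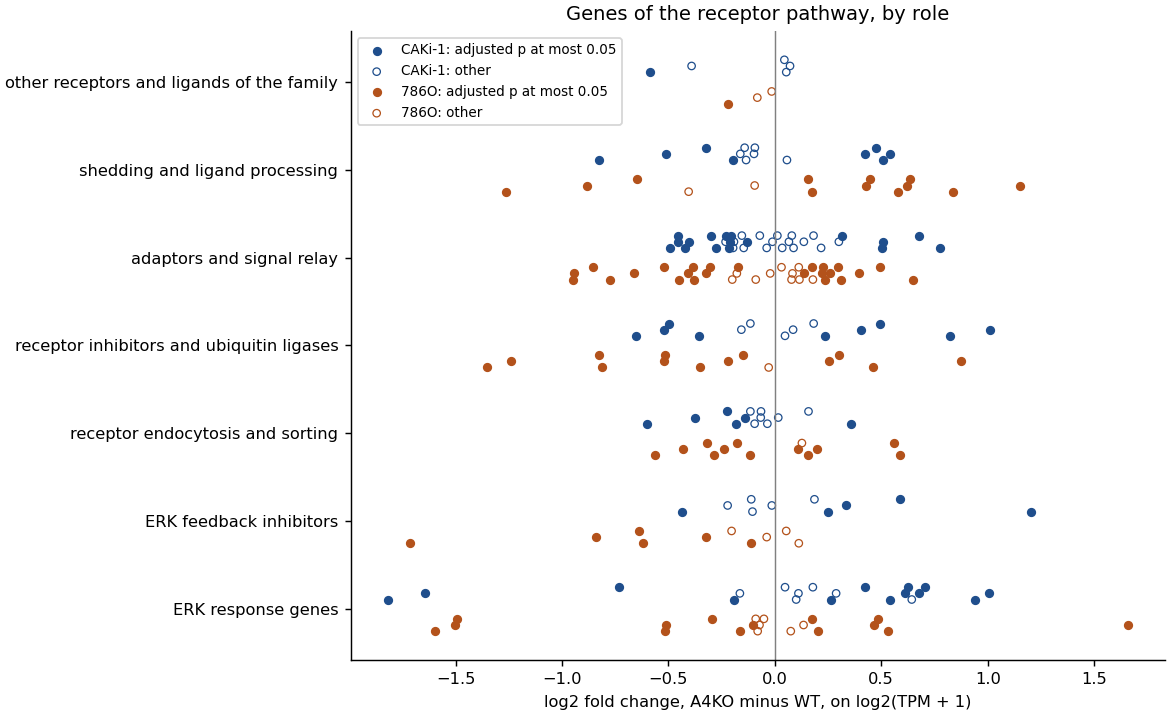
Log2 fold change (A4KO minus WT on log2(TPM + 1), horizontal axis) of each gene of the 7 lists in CAKi-1 (blue) and 786O (orange), filled where the adjusted p was at most 0.05. The ERK feedback inhibitors of 786O that passed all lie below 0, and the other lists hold genes on both sides of 0 in at least 1 of the lines.

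Across the 15 libraries, the genes most like each member were listed by Pearson correlation of log2(TPM + 1), without a test, since the libraries fall into 2 lines and the difference between lines carries much of each value. AREG was most like EREG (r = 0.996), followed by SRSF12 and LAMA4. EREG was most like AREG, then CXCL16 and NECAB2, EGFR like TINAGL1, ERAP2 and UGT1A1, and ERBB2 like ADCY6, SLC16A5 and TMEM234. NRG1 was most like RPL22L1, KL and CLDN2, TGFA like TNPO3, SYK and ZC3HAV1, HBEGF like ODC1, BATF3 and SLC25A15, and BTC like PCYT1B, OR51B5 and CYB5R2. Within a line, AREG and EREG had r = 0.901 over the 9 CAKi-1 libraries and r = 0.974 over the 6 libraries of 786O, and EGFR and TGFA had r = 0.780 and r = 0.994. NRG1 and AREG had a higher value than AREG and EREG within CAKi-1 (r = 0.976). Within 786O several pairs did, among them EGFR and TGFA and also ERBB2 and HBEGF (r = 0.992). These values again hold the step between WT and A4KO. UGT1A1 shares exons with its paralogs, so its TPM is uncertain.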

How the data were processed

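RNA-seq values of 15 libraries were used. For each line, the authors deposited TPM per gene, made with Kallisto on hg38, a unit inferred from the values. Library sums were 961437 to 973887, and versions and the step from transcripts to genes are not given in the sources used here. The labels give a depth of 3000000 reads for a sample, but TPM does not keep each library's own total, so no counting interval is given and tools for counts were not used. Groups were taken from the labels. log2(TPM + 1) was compared within each line and, over shared genes, between lines with limma 3.58.1 (lmFit, eBayes; R 4.3.3), by two-sided tests. P-values were adjusted by the Benjamini-Hochberg method across the whole table, with thresholds of 0.05 and a log2 fold change of 1. No filter was added to the tables of the authors. Genes absent from a table, such as ERBB4, may have been left out before deposit, and the sources do not say. Fold changes are on the log2(TPM + 1) scale, which understates those of scarce genes. Exact permutation tests were run per member. The fits were tested on simulated data. The members and lists were chosen with earlier results of these data known. Named genes are the members, the other family genes, ANGPTL4, some of the cell type markers and the 3 largest changes past the adjusted p in each list and line. Also named are the 3 genes most like each member that has a mean of at least 1 TPM in both lines. Neighbour values use 25 genes on each side with a mean log2 of at least 1. Alternatives were a pseudocount of 0.1, genes under a mean of 1 TPM left out, quantile normalization, eBayes with trend and robust options, the replicate block, neighbour-centred values, A4KO replicates 2, 3 and 5 of CAKi-1 only, and each library left out.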

Additional observations from a re-analysis of the deposited data

Results flagged for a closer look

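The A4KO effect differed between 786O and CAKi-1 by the interaction test for 7 members. As the log2 effect in 786O minus that in CAKi-1, the values were 1.03 for EGFR, 0.496 for ERBB2, -1.034 for NRG1, 1.20 for TGFA, -1.873 for AREG, -1.286 for EREG and 0.261 for BTC. A difference of this kind was found for 55.1% of all shared genes. Among the 18 combinations of a member with a CAKi-1 group tested for a stray library, 1 stood out. EGFR in CAKi-1 WT replicate 1 was 49.5 TPM, apart from the other 3 libraries, which lay between 52.6 and 52.9 TPM. Chance alone flags about 1 in 20 such combinations.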

How the results depend on the processing

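Without single libraries, the members past the adjusted p numbered 5 to 6 in CAKi-1 and 7 to 7 in 786O, those past the fold threshold 2 to 2 and 0 to 0, and those that differed between the lines 6 to 7. The shares of all genes past the adjusted p were then 30.4% to 39.9%, 55.9% to 56.8% and, between the lines, 51.1% to 56.3%. The shares past the fold threshold were 2.93% to 3.73% in CAKi-1 and 7.54% to 7.68% in 786O. Neighbour-centred values raised the 786O members past the fold threshold from 0 to 2, where 6.53% of all genes passed. Signs reversed for HBEGF in CAKi-1 (0.395 with A4KO replicates 2, 3 and 5 only, -0.236 to 0.137 without single libraries), for ERBB3 in 786O (0.047 with quantile normalization, -0.235 to 0.142 without single libraries) and for ERBB3 between the lines (-0.161 with neighbour-centred values, -0.032 to 0.345 without single libraries). Neighbour-centred values also reversed BTC in 786O (-0.319) and between the lines (-0.083), whereas quantile normalization moved the latter the other way, from 0.261 to 0.524 (adjusted p = 2.42e-04). The cause was not tested.

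The calls lost under any alternative were TGFA in CAKi-1, without WT replicate 1 or 2, and BTC in CAKi-1 and between the lines. With trend and robust options BTC was lost in both (adjusted p = 0.0555 and 0.0539), and in 786O, where it had missed the threshold, it passed with quantile normalization (adjusted p = 0.0115). Deviations of same-numbered libraries had r -0.062 to 0.135 over 4 numbers in CAKi-1 and -0.046 to 0.020 over 3 in 786O. Those of differently numbered libraries had r -0.182 to 0.177 in CAKi-1 and -0.049 to 0.041 in 786O. So few libraries cannot show whether a number marks a shared culture, and the labels do not say. With the replicate block, 5 members passed in CAKi-1, 7 in 786O and 6 between the lines, where 34.4%, 57.5% and 53.8% of all genes did, and the call lost was BTC in CAKi-1 and between the lines (adjusted p = 0.122 and 0.102). ERBB3 had no value in 786O or between the lines with genes under a mean of 1 TPM left out. A pseudocount of 0.1 raised the genes past the fold threshold from 543 to 1077 in CAKi-1 and from 1233 to 2095 in 786O. The depth stated in the labels is low for scarce genes such as ERBB3, and TPM does not show each library's own reads, so no counting error was computed.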
